A study of Homo sapiens with 12 samples.

Results

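The HES and HEY transcription factor family was followed here in uLMS cells by the 10 genes of the raw count table whose symbol was HES1, HES2, HES4, HES6, HES7, HEY1, HEY2, HEYL, BHLHE40 or BHLHE41, out of 60649 genes in all. All 10 were kept by the filter on low counts, which left 21114 genes for testing, but several of them were kept on the counts of 1 line alone. SK-UT-1B is an established line from a primary uLMS, and SK-LMS-1 is an established line from a vulvar metastasis. The labels give both as wild type, and cells of both lines were exposed for 72 h. SK-UT-1B cells received DMSO (libraries 4-1 and 4-2) or gemcitabine and docetaxel together with MK-0752, called the combination (3-1 and 3-3). SK-LMS-1 cells received DMSO (2-1 and 2-3, called set 2, and 4-1 and 4-2, called set 4), MK-0752 alone (2-2 and 2-3) or the combination (4-1 and 4-2). Every drug exposure was at the IC30, the concentration that inhibits by 30%, and by the study's methods less MK-0752 went into the combination than was given alone. Each treatment of SK-LMS-1 was compared with the DMSO libraries that carry its first number, whose meaning is not stated, and no such match exists for the SK-UT-1B combination, whose first number differs from that of its control. In SK-UT-1B the combination therefore cannot be told apart from whatever this number stands for. Nothing states that the libraries came from separate cultures, so the *p* values measure only the spread between these libraries.

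HES and HEY proteins are basic helix-loop-helix repressors and the best known direct targets of Notch. When a ligand binds, gamma secretase frees the intracellular part of the receptor, which joins the DNA-binding protein RBPJ and switches on HES and HEY genes. HES1 then represses its own promoter through N boxes, while BHLHE40 and BHLHE41 (DEC1 and DEC2) bind E boxes, act on the circadian clock and respond to signals outside Notch such as low oxygen. MK-0752 inhibits gamma secretase, gemcitabine is a nucleoside analog and docetaxel a taxane.

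The promoters of the 4 members with a difference past the thresholds are shown because they hold the letters through which these inputs are known to act. They are RefSeq sequences of hg38, read 5′ to 3′ on the strand of the gene and ending at the base before the transcript start. HES1 lies at chr3:194135898-194136147 on the plus strand and HEYL at chr1:39639644-39639893 on the minus strand, with the RBPJ core in capitals. BHLHE40 lies at chr3:4979187-4979436 on the plus strand and BHLHE41 at chr12:26125038-26125287 on the minus strand, with the E box in capitals.
HES1: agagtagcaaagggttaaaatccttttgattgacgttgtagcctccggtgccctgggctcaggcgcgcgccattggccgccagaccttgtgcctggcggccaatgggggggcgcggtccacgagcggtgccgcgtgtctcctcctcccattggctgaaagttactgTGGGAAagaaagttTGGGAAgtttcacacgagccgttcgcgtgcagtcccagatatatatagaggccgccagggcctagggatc
HEYL: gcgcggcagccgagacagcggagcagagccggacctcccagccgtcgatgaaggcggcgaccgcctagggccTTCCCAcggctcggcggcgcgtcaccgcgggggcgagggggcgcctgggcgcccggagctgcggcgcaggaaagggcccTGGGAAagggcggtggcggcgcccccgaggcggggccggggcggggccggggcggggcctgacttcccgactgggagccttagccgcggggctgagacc
BHLHE40: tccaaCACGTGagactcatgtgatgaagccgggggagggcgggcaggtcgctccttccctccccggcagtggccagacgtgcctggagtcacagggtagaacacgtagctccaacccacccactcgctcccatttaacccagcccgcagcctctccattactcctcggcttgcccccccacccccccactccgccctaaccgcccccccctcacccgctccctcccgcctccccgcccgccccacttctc
BHLHE41: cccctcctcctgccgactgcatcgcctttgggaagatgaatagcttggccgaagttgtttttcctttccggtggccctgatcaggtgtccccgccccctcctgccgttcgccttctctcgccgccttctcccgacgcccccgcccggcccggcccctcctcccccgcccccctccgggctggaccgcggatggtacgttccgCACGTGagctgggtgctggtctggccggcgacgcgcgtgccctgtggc

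Windows of 300 bases, from 250 before to 50 after the start, were searched on both strands for the RBPJ core TGGGAA, the N box CACNAG and the E box CACGTG. Promoters of 9 of the 10 members were used. The HES1 window held 2 RBPJ cores in the same direction, which began 84 and 70 bases before the start, and 4 N boxes. The HEYL window held 2 RBPJ cores, on opposite strands, 178 and 99 bases before the start. HEY2 also held 2, HES4 and BHLHE41 held 1 each, and HES2, HES6, HES7 and BHLHE40 held no RBPJ core. Of 34796 RefSeq promoter windows, 24.0% held at least 1 RBPJ core and 3.78% held at least 2. The E box lay 245 bases before the start in BHLHE40 and 48 before it in BHLHE41, and 7.20% of all windows held at least 1. N boxes were common, with at least 1 in 38.0% of windows. These matches are a description of the letters and not of binding. On hg38, the genes themselves span chr3:194136148-194138732 (HES1, ENSG00000114315.4), chr1:39623435-39639643 (HEYL, ENSG00000163909.8), chr3:4979437-4985323 (BHLHE40, ENSG00000134107.5) and chr12:26120030-26125037 (BHLHE41, ENSG00000123095.6) in GENCODE.

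Each library held 25250057 to 40709885 counted reads. Zeros were more frequent than this depth gives. Of the genes for which the rest of a line's libraries predicted 5 to 500 counts, 17.6% to 34.5% stood at 0 in a library, against 0.0234% to 0.0374% under Poisson sampling, so a count of 0 for a low member does not show its absence. A count of 0 allows up to 3 counts, or 0.0777 to 0.123 CPM, the library's count scaled to its normalized size, depending on the library, and this limit covers counting error only. Of 10 smooth muscle markers, summed levels were 1056 to 1362 CPM in SK-LMS-1 and 88.1 to 127 CPM in SK-UT-1B. MYH11, a defining marker of mature smooth muscle, had at most 5 counts in any library, and DES was at 0 in all SK-LMS-1 libraries. Epithelial markers summed to 169 to 266 CPM in SK-LMS-1, mainly KRT8 and KRT18, and to 0.292 to 1.14 CPM in SK-UT-1B. Leukocyte and endothelial markers summed to at most 4.64 and 9.40 CPM in any library. MK-0752 libraries had higher smooth muscle sums than DMSO set 2 (1331 and 1362 against 1124 and 1134 CPM) and lower epithelial sums (169 and 181 against 217 and 262 CPM), and the part of these in the results below was not tested. The sums mostly followed MYLK (means of 521 CPM in DMSO set 2 and 769 CPM after MK-0752) and KRT18 (124 and 68.3 CPM). Of the tested smooth muscle markers, 3 had a positive log2 fold change and 5 a negative one, and of the epithelial ones 2 and 3. None passed the thresholds.

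After DMSO, BHLHE40 and HES1 were the highest members in both lines per kb of transcript, and the third was HEYL in SK-UT-1B and BHLHE41 in SK-LMS-1. In CPM, which is not scaled to length, HES1 lay below HEYL in SK-UT-1B (means of 7.80 and 14.7 CPM). It also lay below BHLHE41 in SK-LMS-1 (25.2 and 40.1 CPM). Per kb of the MANE Select transcript, SK-UT-1B held BHLHE40 at 8.47 ± 0.928 CPM per kb (SD, n = 2), HES1 at 4.95 ± 0.522 and HEYL, the HEY-like member, at 3.60 ± 0.595. HES4 followed at 2.20 ± 2.26, HES7, known from the segmentation clock, at 1.13 ± 0.512 and HEY1 at 1.05 ± 0.0714. HES6, which antagonizes HES1, was at 0.0738 ± 0.0328 and BHLHE41 at 0.0319 ± 0.0451 CPM per kb, while HES2 and HEY2 had 0 counts in both libraries. BHLHE40, HES1 and HEYL did not overlap with their neighbours in this order, except that HES4 spanned a range reaching into that of HEYL, although HEYL lay above HES4 within each library. HES4, HES7 and HEY1 could not be ordered beyond their spread.
In SK-LMS-1, BHLHE40 was at 27.6 ± 4.04 CPM per kb (SD, n = 4), HES1 at 16.0 ± 4.37 and BHLHE41 at 10.7 ± 2.26. HES4 was at 4.21 ± 3.37, HES7 at 2.85 ± 1.21 and HEY1 at 1.08 ± 0.373 CPM per kb. HEY2 was at 0.261 ± 0.315, HES2 at 0.130 ± 0.130, HES6 at 0.113 ± 0.225 and HEYL at 0.0522 ± 0.104 CPM per kb. Per kb, within each of the 4 libraries BHLHE40 lay above HES1, HES1 above BHLHE41 and BHLHE41 above HES4. Over the libraries, however, the ranges of HES1 and BHLHE41, and of BHLHE41 and HES4, overlapped. HES4 lay below HES7 in library 2-1 of set 2 and in library 4-2 of set 4 and above it in the others, so these could not be ordered.

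**Figure D1:**
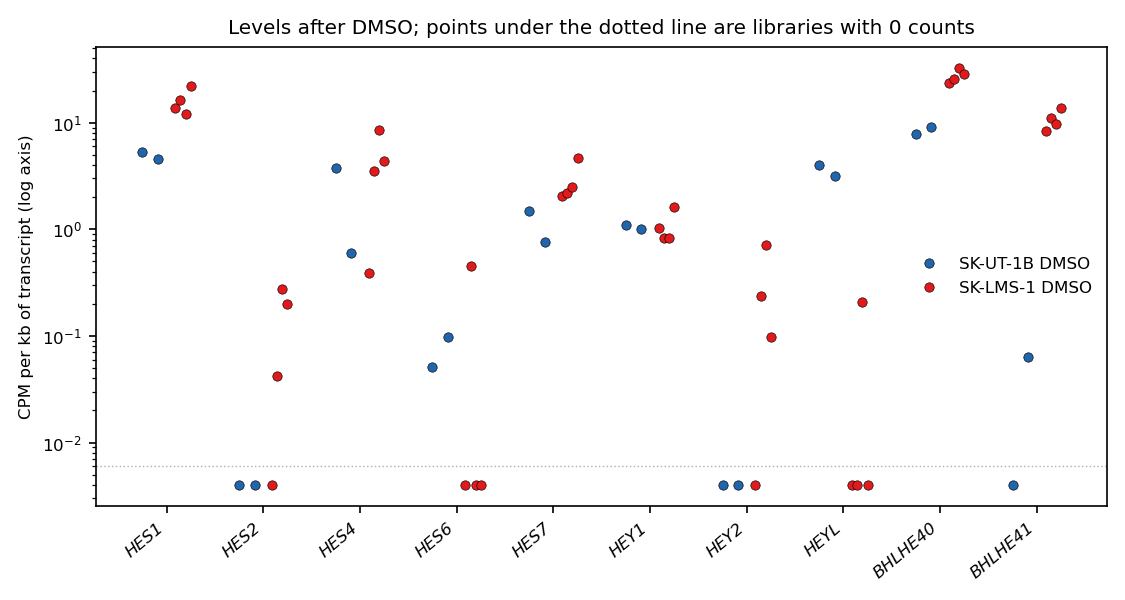
Level of each member after DMSO in CPM per kb of transcript on a log axis, with 1 point per library for SK-UT-1B (blue, 2 libraries) and SK-LMS-1 (red, 4 libraries). BHLHE41 is high in red and near 0 in blue, HEYL the reverse, while HEY1 sits near 1 CPM per kb in both.

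Between the lines after DMSO, 4 of the 10 members were differentially expressed, meaning that in edgeR's quasi-likelihood test the Benjamini-Hochberg adjusted *p* (*p* adj) was under 0.05 and the log2FC at least 1 in size. Of all genes tested, 31.1% were called, so the members' share is read against a high background. BHLHE41 and HEYL passed the filter on low counts only through the line where they were high, so their calls are given as a description. BHLHE41 had 0 and 9 counts in SK-UT-1B and 1089, 1153, 900 and 1969 in SK-LMS-1. Its mean CPM was 336-fold higher in SK-LMS-1 (log2FC 8.20, SE 0.971, edgeR *p* adj = 0.000121), a ratio that rests on the 9 counts of 1 SK-UT-1B library, and with single libraries left out the log2FC ran from 7.31 to 13.31. HEYL ran the other way, with 473 and 488 counts in SK-UT-1B and 0, 0, 21 and 0 in SK-LMS-1, so 1 library carried all of its SK-LMS-1 counts. Its mean CPM was 68.8-fold lower in SK-LMS-1, while the fitted log2FC, which averages the DMSO sets on the log scale with set 2 at 0, was further from 0 than this ratio (-8.52, SE 1.40, edgeR *p* adj = 0.000890). With single libraries left out the fitted value ran from -11.92 to -7.98.
HES1 was 3.24-fold higher in SK-LMS-1 (log2FC 1.69, SE 0.444, edgeR *p* adj = 0.00417). BHLHE40 was 3.26-fold higher there as well (log2FC 1.69, SE 0.195, edgeR *p* adj = 6.09e-07). For 5 members, those 4 and HES7, the libraries of the lines did not overlap in CPM, which was so for 51.8% of all genes. HES7 stood at 2.53 and 1.30 CPM in SK-UT-1B and at 3.47, 3.73, 4.26 and 7.88 CPM in SK-LMS-1 (log2FC 1.29, edgeR *p* adj = 0.232). HES2 and HEY2, a HEY member known from heart and vessels, were at 0 in all SK-UT-1B libraries, and their mean in SK-LMS-1 was at least 6.03-fold and 7.47-fold higher than 3 counts per SK-UT-1B library, with edgeR *p* adj of 0.176 and 0.181. HES6 had few counts, and its mean CPM and its fitted log2FC differed in sign. HES3, HES5 and HELT, relatives outside the 10 members, had 0 counts in every library. BHLHE41 shares 162 exonic bases with SSPN on the other strand, and SSPN had 349 to 2110 counts in SK-LMS-1 and 0 to 110 in SK-UT-1B. By the study's methods the library kit was stranded. The strand setting of the counts is not given in the sources used here, so how reads of the shared bases were assigned is not known.

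HES1 was lower after each treatment than in the DMSO libraries it was compared with, and the fall passed the thresholds in SK-LMS-1, where the calls were lost when some single libraries were left out. It is not independent of the study design, because treatments were taken forward to sequencing for lowering HES1 by qPCR, and MK-0752 alone in SK-UT-1B was left out for not doing so. In bulk RNA, fewer cells of a type and less RNA per cell cannot be told apart. HES1 stood at 21.5 and 25.5 CPM in DMSO set 2 and at 3.14 and 3.80 CPM after MK-0752. The fall was 6.78-fold (log2FC -2.76, SE 0.506, edgeR *p* adj = 0.0153). In DMSO set 4 it stood at 19.1 and 34.8 CPM and after the combination at 3.82 and 1.35 CPM. The fall was 10.4-fold (log2FC -3.37, SE 0.521, edgeR *p* adj = 0.0227). The MK-0752 call was lost without DMSO 2-1 or 2-3 or MK-0752 2-2 or 2-3 (edgeR *p* adj from 0.109 to 0.295), and the combination call without DMSO 2-3 or 4-2 or combination 4-1 or 4-2 (edgeR *p* adj from 0.0550 to 0.373). The log2FC stayed between -2.90 and -2.63 for MK-0752 and between -4.31 and -2.82 for the combination with each library left out. The libraries of treated and control cells stood far apart in both comparisons, and the raw counts went from 472 to 1342 over the 4 DMSO libraries to 33 to 140 over the 4 treated ones.
Against DMSO set 2, a control chosen after seeing the data, the combination had a log2FC of -3.17 and edgeR *p* adj = 0.108. In a fit to DMSO set 4 and the combination alone the log2FC was -3.41 and edgeR *p* adj = 0.478. The call was lost in both although the log2FC stayed about as large, and the cause was not tested. With all 4 DMSO libraries as control, HES1 was still called. In SK-UT-1B, HES1 stood at 8.38 and 7.21 CPM after DMSO and at 2.51 and 2.27 CPM after the combination. The groups did not overlap, but the 3.26-fold lower level (log2FC -1.70, SE 0.494, edgeR *p* adj = 0.141) did not pass the threshold. It passed in DESeq2 (*p* adj = 0.0251). The effects of the combination on HES1 differed by 1.67 log2 units between the lines (95% interval 0.24 to 3.10), which did not pass the threshold (edgeR *p* adj = 0.600). In SK-LMS-1, the MK-0752 effect minus the combination effect was 0.61 (95% interval -0.80 to 2.03, edgeR *p* adj = 1.00), at different amounts of MK-0752. The DMSO sets differed by 0.20 (95% interval -0.79 to 1.18). After treatment, HES1 levels in all 6 treated libraries lay between 1.35 and 3.82 CPM, below every DMSO library of both lines.

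**Figure D2:**
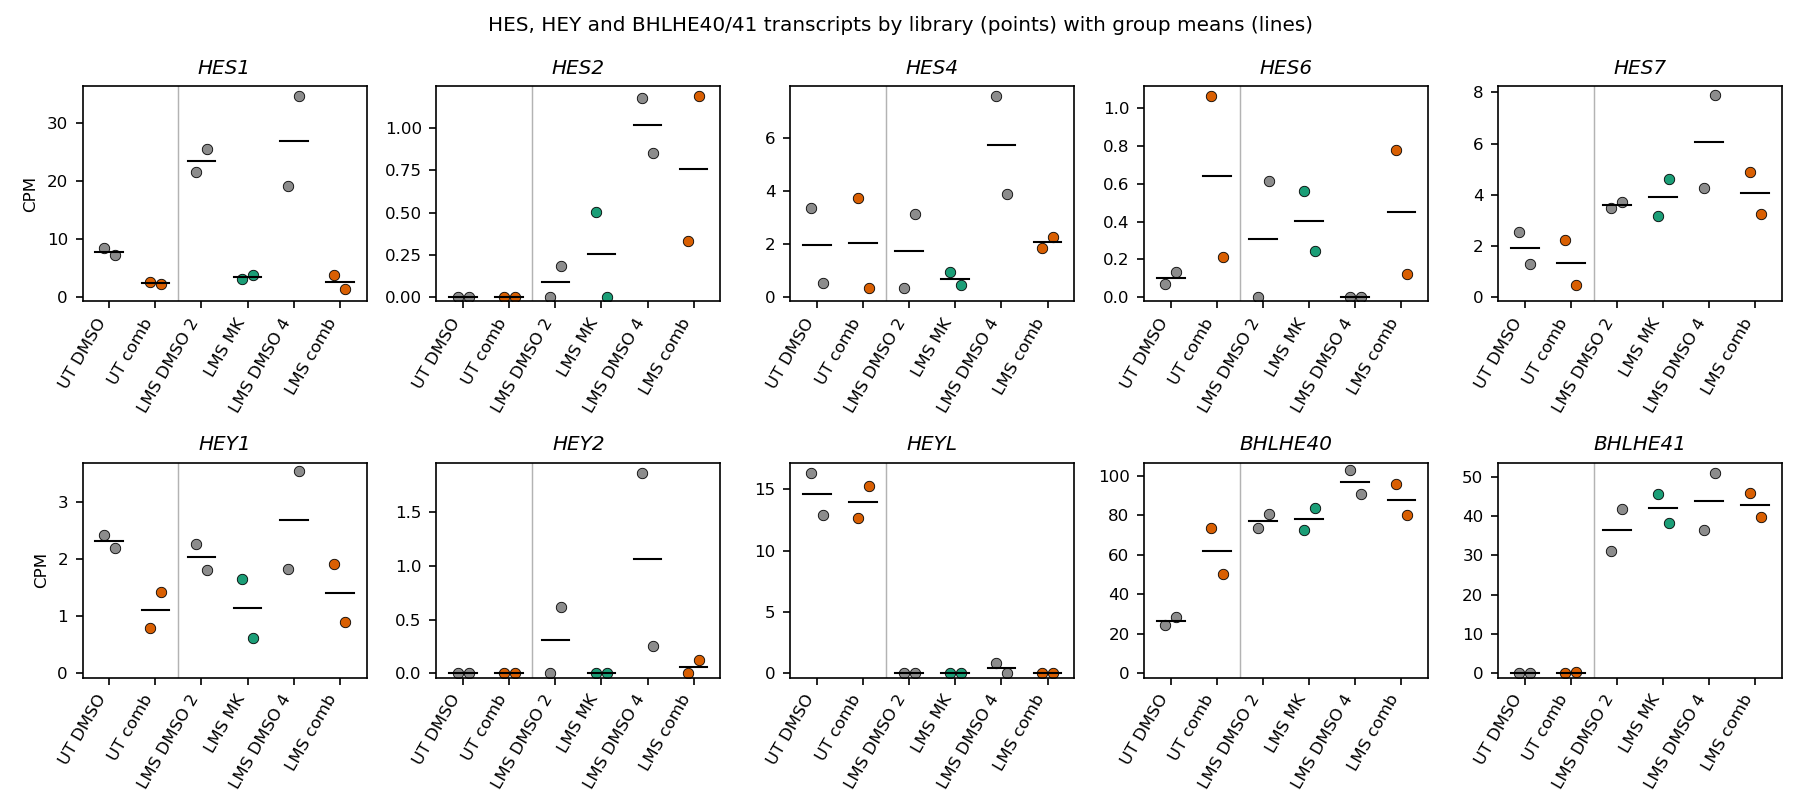
CPM of each of the 10 members in every library (points) with group means (lines), for SK-UT-1B (UT, left of the grey line) and SK-LMS-1 (LMS, right), with DMSO in grey, MK-0752 (MK) in green and the combination (comb) in orange; DMSO 2 and DMSO 4 are the sets of SK-LMS-1. HES1 is lower in each treated group than in its DMSO libraries, and BHLHE40 is higher after the combination in SK-UT-1B.

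Among the other HES members no treatment gave a difference past the thresholds. HES4 stood at 7.59 and 3.86 CPM in DMSO set 4 and at 1.86 and 2.26 CPM after the combination (log2FC -1.47, SE 1.35, edgeR *p* adj = 0.973). In DMSO set 2 it stood at 0.344 and 3.12 CPM, a range within which both MK-0752 libraries fell, at 0.926 and 0.462 CPM. Against DMSO set 2 the combination log2FC of HES4 was 0.25, so its direction depended on the control. HES7 stood at 3.17 and 4.62 CPM after MK-0752, on either side of the 3.47 and 3.73 CPM of DMSO set 2, and at 4.90 and 3.24 CPM after the combination (log2FC -0.58, SE 0.913, edgeR *p* adj = 1.00). Against DMSO set 2 the HES7 value was 0.18. In SK-UT-1B its libraries overlapped as well (log2FC -0.51, SE 0.922). HES6 had 0 counts in DMSO set 4 and 26 and 3 counts after the SK-LMS-1 combination, at least 4.53-fold higher, and 2 and 5 counts after DMSO against 39 and 6 after the combination in SK-UT-1B, with edgeR *p* adj of 0.907 and 0.953. HES2 had 29 and 33 counts in DMSO set 4 and 11 and 29 after the combination, and 0 and 5 counts in DMSO set 2 against 18 and 0 after MK-0752.

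HEY1, which needs Notch for its expression in many cell types, had a negative log2FC in each treatment, none of which passed the threshold. In SK-UT-1B it stood at 2.42 and 2.20 CPM after DMSO and at 0.792 and 1.42 CPM after the combination (log2FC -1.06, SE 1.29, edgeR *p* adj = 0.965). In SK-LMS-1 it stood at 2.26 and 1.81 CPM in DMSO set 2 and at 1.65 and 0.625 CPM after MK-0752 (log2FC -0.84, SE 1.29, edgeR *p* adj = 1.00). It stood at 1.83 and 3.55 CPM in DMSO set 4 and at 1.92 and 0.903 CPM after the combination (log2FC -0.93, SE 1.29, edgeR *p* adj = 1.00). The libraries were apart in the first pair of comparisons and overlapped in the last. Intervals reached from -3.77 to 1.64 in SK-UT-1B and from -3.53 to 1.86 after MK-0752, so falls of the size seen for HES1 lie within them.
HEY2 had 46 and 10 counts in DMSO set 4 and 0 and 3 after the combination, and 0 and 17 in DMSO set 2 against 0 and 0 after MK-0752. HEYL in SK-UT-1B stood at 16.4 and 12.9 CPM after DMSO and at 12.7 and 15.3 CPM with the drugs (log2FC -0.07, SE 1.19, 95% interval -2.78 to 2.64). The groups overlapped. HES1, which like HEYL holds 2 RBPJ cores in the promoter shown above, had a log2FC of -1.70 in the same libraries, and the difference between the genes was not tested. In SK-LMS-1, DMSO libraries 4-1 and 4-2 held 21 and 0 HEYL counts, and neither combination library held any (edgeR *p* adj = 0.907).

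BHLHE40 was the one member past the thresholds in SK-UT-1B, and it rose. The first number of the titles also differs between these groups and cannot be told apart from the combination. BHLHE40 stood at 24.6 and 28.8 CPM after DMSO and at 73.7 and 50.4 CPM after the combination. The rise was 2.32-fold (log2FC 1.22, SE 0.211, edgeR *p* adj = 0.00658), and the lower treated library was still well above both controls. Without combination library 3-1 the log2FC was 0.89 (edgeR *p* adj = 0.0488), under the fold threshold, without DMSO library 4-1 it was 1.07 (edgeR *p* adj = 0.0926), and in a fit to the 4 SK-UT-1B libraries alone it was 1.22 (edgeR *p* adj = 0.555). In SK-LMS-1, BHLHE40 stood at 73.6, 80.6, 103 and 90.8 CPM after DMSO, 72.4 and 83.8 CPM with MK-0752, and 95.7 and 80.1 CPM with the combination. These ranges overlapped, with log2FC values of 0.02 (95% interval -0.41 to 0.45) and -0.14 (95% interval -0.57 to 0.29). Both signs turned when all 4 DMSO libraries were the control. The combination effect was 1.36 higher in SK-UT-1B than in SK-LMS-1 (SE 0.295, 95% interval 0.74 to 1.97, edgeR *p* adj = 0.0716), which passed in DESeq2 (*p* adj = 0.00255). After the combination, the 2 SK-UT-1B libraries lay near or below the lowest SK-LMS-1 value. BHLHE40 shares 451 exonic bases with BHLHE40-AS1 on the other strand, which had 4 and 0 counts after the SK-UT-1B combination, against 2696 and 1420 for BHLHE40. In SK-LMS-1, BHLHE40-AS1 had 0 counts in all 4 DMSO libraries and 16 to 42 in the treated ones.
BHLHE41 was called in no treatment comparison. In SK-UT-1B it had 0 and 9 counts after DMSO against 0 and 13 with the combination, and in SK-LMS-1 its log2FC was 0.20 after MK-0752 (95% interval -1.27 to 1.67) and -0.03 after the combination (95% interval -1.50 to 1.43).

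**Figure D3:**
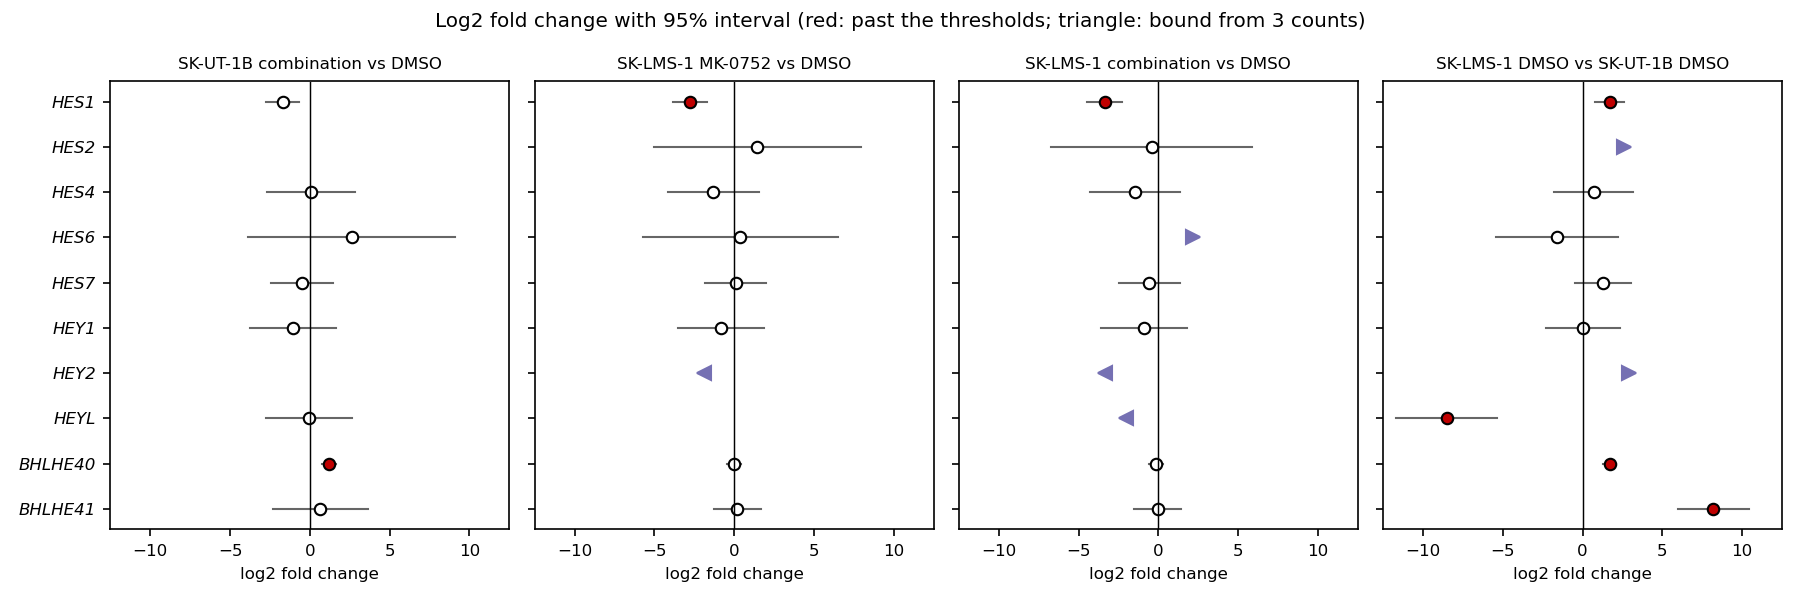
Log2 fold change of each member with its 95% interval (lines) in 3 treatment comparisons and between the lines after DMSO; red points passed both thresholds, open points did not, and triangles are bounds computed from 3 counts for groups at or near 0. HES1 is red in both SK-LMS-1 treatments and BHLHE40 in the SK-UT-1B combination, while the intervals of the low members span several log2 units.

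Counted over the family, 1 of 10 members was called in each treatment comparison. This was BHLHE40 in SK-UT-1B, where 0.559% of all genes were called, and HES1 in both SK-LMS-1 comparisons, where 0.251% were called after MK-0752 and 0.0237% after the combination. These shares rest on 118, 53 and 5 genes, and with single libraries left out the numbers ran from 79 to 812, 14 to 95 and 0 to 29. Libraries of treated and control cells did not overlap for 4 members in SK-UT-1B (32.1% of all genes), 2 after MK-0752 (34.5%) and 4 after the combination in SK-LMS-1 (32.4%), shares near the background. After the SK-LMS-1 combination, 9 of 10 members had a negative log2FC, with a median of -0.75 against 0.03 over all genes. After MK-0752, 4 were negative and 5 positive, and in SK-UT-1B 4 were negative and 4 positive. In DMSO set 4 compared with DMSO set 2, 9 of 10 members had a positive value, and set 4 is the control of that combination. Between the DMSO sets, 0 members were called by edgeR or DESeq2, 1 had an unadjusted edgeR *p* under 0.05 and 0% of all genes were called by edgeR. The difference in combination effect between the lines was called by edgeR for 0 members (0.232% of all genes), with 3 at an unadjusted *p* under 0.05 and 1 called by DESeq2. The difference between the SK-LMS-1 effects of MK-0752 and of the combination was called by edgeR for 0 members (0.0379% of all genes), with 0 at an unadjusted *p* under 0.05 and 0 called by DESeq2. These differences share libraries with the treatment comparisons.
HES1 made up 52.2% to 78.0% of the summed CPM of the 8 HES and HEY members in SK-LMS-1 after DMSO, 31.5% and 39.0% with MK-0752, and 28.0% and 14.7% with the combination. In SK-UT-1B, where HEYL was abundant, it made up 25.3% and 29.7% after DMSO but 11.0% and 11.3% with the combination. The summed level was 27.6, 35.6, 36.7 and 51.2 CPM in SK-LMS-1 after DMSO, 9.96 and 9.75 CPM with MK-0752, and 13.6 and 9.19 CPM with the combination, with no overlap between DMSO and treated libraries. HES1 is part of these sums, so they do not by themselves show a fall of the other members. In SK-UT-1B the sums were 33.1 and 24.3 CPM after DMSO but 23.0 and 20.0 CPM with the combination.

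Genes upstream of the family were described by lists. None of 7 tested ligands, 4 receptors, 8 gamma secretase subunits and sheddases and 17 genes of the nuclear Notch complex was called in a treatment comparison. At an unadjusted edgeR *p* under 0.05 stood 3 of the 7 ligands in each SK-LMS-1 comparison and 1 in SK-UT-1B, against 1354 of all 21114 genes after MK-0752, 914 after the SK-LMS-1 combination and 2214 in SK-UT-1B. DLL4, a Notch ligand chosen for mention after its values were seen, stood at 80 and 68 counts with MK-0752 against 414 and 407 in its controls of set 2 (log2FC -2.70, SE 0.780, edgeR *p* adj = 0.263). In DMSO set 4 it had 587 and 467 counts, and after the combination 186 and 158 (log2FC -1.57, SE 0.747, edgeR *p* adj = 0.907). The treated libraries of DLL4 did not overlap with their controls in either comparison, which was so for 34.5% of all genes after MK-0752 and 32.4% after the combination. The MK-0752 difference passed in DESeq2 (*p* adj = 0.00912), and over all alternatives run its *p* adj in edgeR or DESeq2 ran from 0.00912 to 0.969. DLK2 and JAG2, ligands with few counts that were also chosen after their values were seen, differed in sign between the SK-LMS-1 comparisons. DLK2 was at 0 throughout DMSO set 2 and at 1 and 34 counts with MK-0752 (edgeR *p* adj = 0.508), and went from 20 and 20 counts in set 4 to 38 and 0 with the combination (edgeR *p* adj = 1.00). JAG2 was at 0 throughout set 4 and at 13 and 1 counts with the combination (edgeR *p* adj = 0.907), and went from 4 and 13 counts in set 2 to 5 and 0 with MK-0752 (edgeR *p* adj = 0.806). JAG1, another ligand, averaged 166 ± 11.2 CPM (SD, n = 2) in DMSO set 2 and 122 ± 7.10 CPM after MK-0752 (log2FC -0.45, SE 0.187, edgeR *p* adj = 0.648), with both MK-0752 libraries below both controls. In DMSO set 4 it averaged 175 ± 14.4 CPM and after the combination 171 ± 14.2 CPM, and these libraries overlapped. RBPJ averaged 159 ± 2.53 CPM in DMSO set 4 and 186 CPM after the combination, both libraries above both controls (log2FC 0.23, SE 0.149, edgeR *p* adj = 0.907). NOTCH2, the receptor with the most counts in both lines, averaged 579 ± 8.33 CPM in DMSO set 2 and 615 ± 34.0 CPM after MK-0752, and 550 ± 47.7 CPM in DMSO set 4 and 632 ± 6.06 CPM after the combination. Its treated libraries lay above their controls in both comparisons. The separation of JAG1, RBPJ and NOTCH2 libraries is read against the same shares of all genes as that of DLL4. NOTCH1 averaged 39.3 ± 5.67 and 36.3 ± 6.99 CPM in DMSO sets 2 and 4, 32.7 ± 11.5 CPM after MK-0752 and 32.9 ± 7.52 CPM after the combination, and its libraries overlapped in both comparisons. NOTCH3 was low in SK-LMS-1, with 91 to 165 counts after DMSO, 41 and 0 with MK-0752, and 0 and 0 with the combination. NOTCH4 had 24 to 170 counts after DMSO and 107 to 154 after treatment there. For the gamma secretase and sheddase genes, 7 of 8 had a positive log2FC in SK-UT-1B (median 0.47), 8 of 8 after MK-0752 (median 0.14) and 3 of 8 after the SK-LMS-1 combination (median -0.02). Over all genes these medians were 0, 0 and 0.03.
NRARP, a Notch target that feeds back on the pathway, had in SK-UT-1B 214 and 349 counts after DMSO against 231 and 157 with the combination (log2FC -0.49, SE 0.939). Scaled to CPM, its means there were 8.33 ± 1.31 and 5.94 ± 0.523 (SD, n = 2). In SK-LMS-1 it had 69 and 48 counts in DMSO set 2 against 5 and 33 after MK-0752 (log2FC -1.83, SE 0.986, edgeR *p* adj = 0.806), and 78 and 55 in set 4 against 30 and 25 after the combination (log2FC -1.25, SE 0.967, edgeR *p* adj = 0.911). In CPM, its treated libraries lay below their DMSO ones in both lines. Such separation, in either direction, was seen for 32.1% of all genes in SK-UT-1B, 34.5% after MK-0752 and 32.4% after the SK-LMS-1 combination. Of all genes, 0.559% were called in SK-UT-1B, and of the 17 tested Notch modifiers DTX3, a Deltex family gene, was called there. It rose in SK-UT-1B from 141 and 272 to 947 and 405 counts (log2FC 1.73, SE 0.339, edgeR *p* adj = 0.0177), and the call was lost without DMSO 4-1 or combination 3-1 (edgeR *p* adj = 0.164 and 0.156).

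Partners and targets were described in the same way. Of all genes, 0.559% were called in SK-UT-1B, 0.251% after MK-0752 and 0.0237% after the SK-LMS-1 combination. TLE proteins are the Groucho corepressors that HES and HEY proteins recruit, and 1 of 6 tested was called. TLE4 fell in SK-UT-1B from 93 and 55 counts to 0 and 0 (edgeR *p* adj = 7.21e-06), while in SK-LMS-1 it had 1200 to 2007 counts after DMSO and 1530 to 2796 after treatment. In SK-UT-1B combination libraries 3-1 and 3-3, 22.3% and 25.8% of the genes predicted at 5 to 500 counts stood at 0. The 0 counts of TLE4 therefore do not show its absence. ID proteins sequester helix-loop-helix partners, and ID1 rose after MK-0752 from 583 and 612 to 1585 and 2312 counts (log2FC 1.47, SE 0.271, edgeR *p* adj = 0.0163), the one call among 7 ID and E protein genes in the 3 treatments. Of 7 alternative analyses not chosen after seeing the data, 1 ended the ID1 call, and their lowest log2FC was 0.97, under the fold threshold. DMSO set 4 held 1086 and 1026 counts of ID1. With set 4 as the control, chosen after seeing the data, its log2FC was 0.60 and it was not called, and the call was also lost without DMSO 2-1, DMSO 2-3 or MK-0752 2-3 (edgeR *p* adj = 0.389, 0.0739 and 0.345).
Of 6 tested genes that HES1 is known to repress, 2 had a positive log2FC in SK-UT-1B and 4 a negative one (median -0.02, against 0 over all genes). Only CDKN1A, the p21 inhibitor of cell cycle kinases and also a p53 target, was called there. It rose from 640 and 547 to 1621 and 1087 counts (log2FC 1.18, SE 0.259, edgeR *p* adj = 0.0391), but the call was lost in 8 of the 12 fits that left out 1 library (edgeR *p* adj from 0.0588 to 0.242), those without SK-UT-1B DMSO 4-2 or combination 3-1 or any one of the SK-LMS-1 DMSO and combination libraries. With the last numbers of the titles as a replicate block, CDKN1A was not called either. In SK-LMS-1 its log2FC was -0.33 after MK-0752 and 0.29 after the combination (edgeR *p* adj = 0.810 and 0.958). Of 18 circadian clock genes, on which BHLHE40 and BHLHE41 act, none was called in a treatment comparison.
Of 18 genes known to be induced by low oxygen, 14 had a positive log2FC in SK-UT-1B after the combination (median 0.41, against 0 over all genes), and 8 had an unadjusted edgeR *p* under 0.05, as had 2214 of all 21114 genes. NDRG1 was called, and rose from 249 and 411 to 1300 and 896 counts (log2FC 1.78, SE 0.194, edgeR *p* adj = 5.52e-05). The list was split in SK-LMS-1, with 7 positive after MK-0752 and 10 after the combination, and none called. Between the lines after DMSO, 6 of the 18 were called, all of them higher in SK-LMS-1, where 31.1% of all genes were called in either direction. In a fit to the 4 SK-UT-1B libraries alone, none of the SK-UT-1B calls named here was kept, and 0 genes were called in all. For each of these calls the combination cannot be told apart from the first number of the titles.

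**Figure D4:**
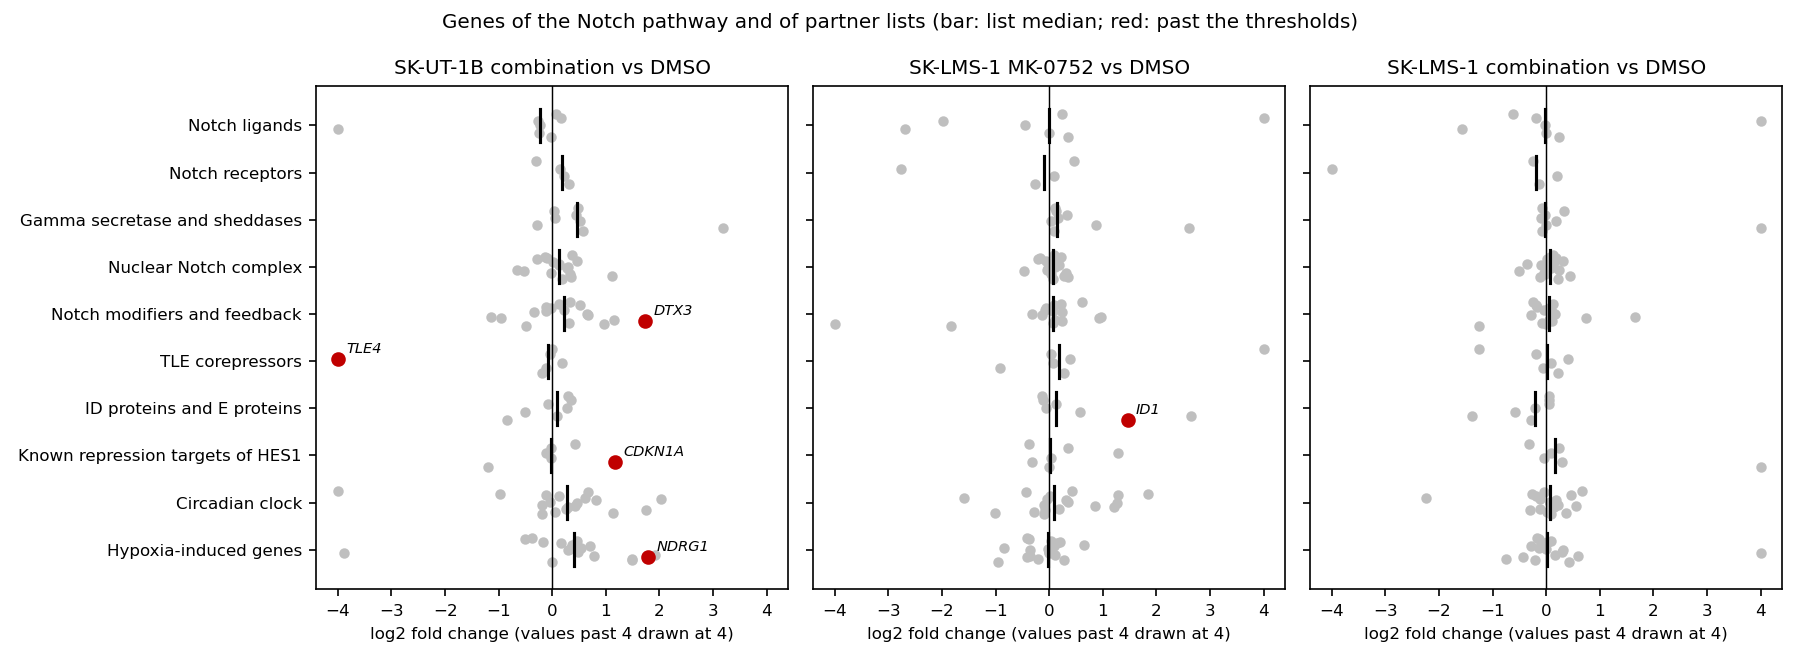
Log2 fold change of each tested gene (points) in 10 lists of Notch pathway, partner and target genes after the 3 treatments, with the list median (bar), genes past the thresholds in red and values beyond 4 drawn at 4. DTX3, TLE4, CDKN1A and NDRG1 are red in SK-UT-1B and ID1 after MK-0752, and no gene is red after the SK-LMS-1 combination.

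The genes whose pattern was most like that of HES1 were looked for among 9865 genes with a mean of at least 10 CPM, by Pearson correlation of log2(CPM + 0.5) over the 12 libraries after the mean of each line was subtracted. They were ETS2 (r = 0.94), NUP58 (r = 0.92), HSP90B1 (r = 0.90), TYW5 (r = 0.89) and CALR (r = 0.88). The points share treatments and lines, so these values are a description. Among the members, r with HES1 was 0.75 for HEY1, 0.48 for HEY2, 0.39 for HES7, 0.30 for HES4 and 0.27 for HEYL, and it was below 0 for HES2, HES6, BHLHE40 and BHLHE41. ETS2, a transcription factor, stood at 57.5 and 52.7 CPM as means of DMSO sets 2 and 4, 24.4 CPM after MK-0752 and 27.8 CPM after the combination in SK-LMS-1. In SK-UT-1B its means were 9.42 CPM after DMSO and 6.81 CPM after the combination.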

How the data were processed

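RNA sequencing of 12 libraries from SK-UT-1B and SK-LMS-1 was used. Per the study's methods and processing notes, the authors trimmed reads with Trim Galore 0.3.7, aligned them to hg38 with STAR 2.7.9a, removed ribosomal RNA and deposited STAR's read counts per gene as they were, not normalized. The annotation, strand setting and duplicate removal are not given in the sources used here. The 12 libraries formed 6 groups of 2 by line and treatment, the SK-LMS-1 DMSO libraries being split by the first number in their titles. In R 4.3.3, edgeR 4.0.16 (TMM, filterByExpr, robust quasi-likelihood fit over all groups) tested 21114 genes, with Benjamini-Hochberg adjustment over all of them. A call required an adjusted *p* under 0.05 and an absolute log2FC of at least 1. CPM used TMM library sizes, and the authors' counts were otherwise unchanged. A group with at most 3 counts in each library was taken as at the floor. The tests were checked on simulated data.

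The members and gene lists were chosen with earlier results of these data known. All members were named, and of the lists the genes called in a treatment comparison plus NRARP, the 4 Notch receptors, JAG1, RBPJ, HES3, HES5 and HELT. DLL4, DLK2, JAG2 and the cell type markers named fall outside this rule and were chosen after their values were seen. Alternatives were DESeq2 1.42.0, DESeq2's size factors, total counts, no filter beyond 1 count, a fit to the compared libraries alone, 1 control group of all 4 DMSO libraries for SK-LMS-1, a replicate block, leaving out single libraries with the same genes tested, and, chosen after seeing the data, the other DMSO set as control. Positions are hg38 with GENCODE annotation, and promoters are RefSeq sequences. No sequence of HEY1 was used here.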

Additional observations from a re-analysis of the deposited data

Results flagged for a closer look

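Of the members in the 4 SK-LMS-1 DMSO libraries, HES6 and HEYL each had 1 library far from the others. HES6 stood at 0.616 CPM (17 counts) in library 2-3 and at 0 in the other 3. HEYL stood at 0.852 CPM (21 counts) in library 4-1 and at 0 in the other 3. With 3 of 4 libraries at 0, any count in the other one stands out in this way, so the rate of about 1 in 20 groups that chance gives for continuous values does not apply here.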

How the results depend on the processing

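Apart from leaving out libraries, the count of 1 member called after MK-0752 (HES1) and of 4 between the lines held under every alternative run. In SK-UT-1B after the combination, DESeq2 and the fit without a filter called 2 (HES1 and BHLHE40) and the fit on only the libraries of the comparison 0. Over all genes these gave 463, 420 and 0 calls against 118. For the SK-LMS-1 combination, the fit without a filter called 2 (HES1 and HEYL), only the libraries of the comparison 0 and DMSO set 2 as control 0, with 73, 0 and 0 genes in all against 5. DESeq2 called 59 genes there. DESeq2 called 181 genes after MK-0752 and the fit without a filter 175, against 53. For the difference in combination effect, DESeq2 called 1 member (BHLHE40) of 196 genes and the fit without a filter 2 (HEYL and BHLHE40) of 303, against 49 genes. Between the DMSO sets the fit without a filter called 1 (HEYL) of 76 genes. In the fit without a filter, edgeR's prior degrees of freedom were infinite, so every gene took the fitted trend as its spread. The cause of the other changes was not tested. Leaving out each library in turn, with the 21114 genes kept, gave 0 to 1 members in SK-UT-1B, after MK-0752, for the SK-LMS-1 combination, for the difference in combination effect and between the DMSO sets, and 4 between the lines. HES1 was lost after MK-0752 without any one of the 4 libraries compared, and for the SK-LMS-1 combination without DMSO 2-3 or 4-2 or combination 4-1 or 4-2. BHLHE40 in SK-UT-1B was lost without DMSO 4-1 or combination 3-1, its difference in combination effect was called without SK-UT-1B combination 3-3, and HEYL between the DMSO sets without DMSO 4-2. Over all genes, SK-UT-1B had 812 calls without combination 3-3 and 220 without DMSO 4-2, MK-0752 had 14 without MK-0752 2-3, and the SK-LMS-1 combination had 29 without DMSO 4-2 and 0 without combination 4-1.

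Directions that turned were those of values not called. With all 4 DMSO libraries as control, BHLHE40 had a log2FC of -0.15 after MK-0752, 0.0162 after the combination and -0.17 for the difference of these effects. With the other DMSO set as control, BHLHE40 was at -0.31 after MK-0752 and 0.19 after the combination, HES4 at 0.25 and HES7 at 0.18 after the combination. With each library left out, BHLHE40 ranged from -0.0898 to 0.12 after MK-0752, HES1 between the DMSO sets from -0.30 to 0.56, HES4 from -2.16 to 1.00 after MK-0752 and from -0.46 to 2.50 between the lines, and HES7 in SK-UT-1B from -2.06 to 0.21.

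The labels do not say that the last numbers of the titles pair samples. This could be checked only for SK-LMS-1 DMSO set 4 and the combination, which share both numbers, as 1 correlation of deviations from the group means (-0.00676), and it does not show pairing. The groups of the other treatment comparisons share 1 number each and were not checked. With the last numbers as a replicate block, 1 member was called in each treatment comparison, 4 between the lines and 0 in the other comparisons. CDKN1A in SK-UT-1B lost its call with the block (log2FC 1.04, edgeR *p* adj = 0.0504). The block gave 186 calls over all genes in SK-UT-1B against 118. Members with few counts had wide intervals, such as -0.91 to 14.67 log2 units for HES6 after the SK-LMS-1 combination.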
